A study of Zea mays with 2 samples.

Results

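Transcripts that were present in endosperm of wild-type (WT) maize kernels and nearly absent from endosperm of the kernel mutant dek37 were chosen by their measured levels: at least 4 RPKM in the WT library and less than 1 RPKM in the dek37 library. RPKM counts reads per kilobase, relative to the size of the library. The rule was met by 122 of 56848 entries, which lay on 121 of 50685 loci. They are called the dek37-low entries below, because for 46 of them the read numbers were too small to exclude an equal level in both libraries, so that loss could not be shown. The entries were selected on the values of both libraries, so their levels, the direction and the size of the difference describe how the entries were picked and are not findings about the mutant.

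The dek37 group was 1 library of endosperm from kernels of the genotype dek37 and the WT group was 1 library of WT endosperm, both made from total RNA at 18 days after pollination. The labels name neither the inbred background nor the dek37 allele nor how many kernels or plants were pooled. The dek37 library came to 19106174 reads and the WT library to 18139532 reads, both read back from the RPKM values. With 1 library per genotype there is no replicate check, every difference is one between 2 samples, and no p-value can be given.

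As background, maize endosperm takes up most of the kernel and is filling with starch and storage protein at this age. Mutants of the dek class (defective kernel) form small or empty kernels. The DEK37 protein belongs to the pentatricopeptide repeat family, large in plants, whose members enter organelles and process RNA there. It is known to be needed for splicing an intron from a mitochondrial RNA that encodes a subunit of respiratory complex I. The deposited entries carry a chromosome, a start and an end and no gene name. The sources used here name no genome build, so no entry could be given a gene name, a function, an exon or a UTR. None of the 50685 loci had the start and end of a gene in the NAM-5.0 gene table at hand, and 6 shared a start or an end with one. The identity of the tissue could not be checked with marker genes for the same reason, and the level of the dek37 gene was not analysed here. Fewer cells of a type and less RNA per cell cannot be told apart in such bulk samples.

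Most dek37-low entries stood low in WT endosperm as well. Their level in dek37 ran from 0.0649 to 0.997 RPKM, with a median of 0.582 RPKM. In WT their level ran from 4.03 to 60.8 RPKM, with a median of 5.19 RPKM. A WT level below 10 RPKM was seen in 105 of the 122 entries (86.1%), against 37.4% of all 21710 entries with at least 4 RPKM in WT. Only 17 entries had 10 RPKM or more in WT, and 6 of these had 20 RPKM or more. Together the 122 entries made up 0.00606% of the summed RPKM of the dek37 library and 0.0679% of that of the WT library. Among all entries with at least 4 RPKM in WT, 0.562% met the rule.

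The difference is given as log2(RPKM + 1) in dek37 minus the same in WT, a scale that understates changes of low entries. For the 122 entries it ran from -5.56 to -1.37, with a median of -2.01. Over all 21710 entries with at least 4 RPKM in WT the median was 0.29. In plain ratios the dek37 level was between 0.510% and 23.7% of the WT level, with a median of 9.49%.

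**Figure D1:**
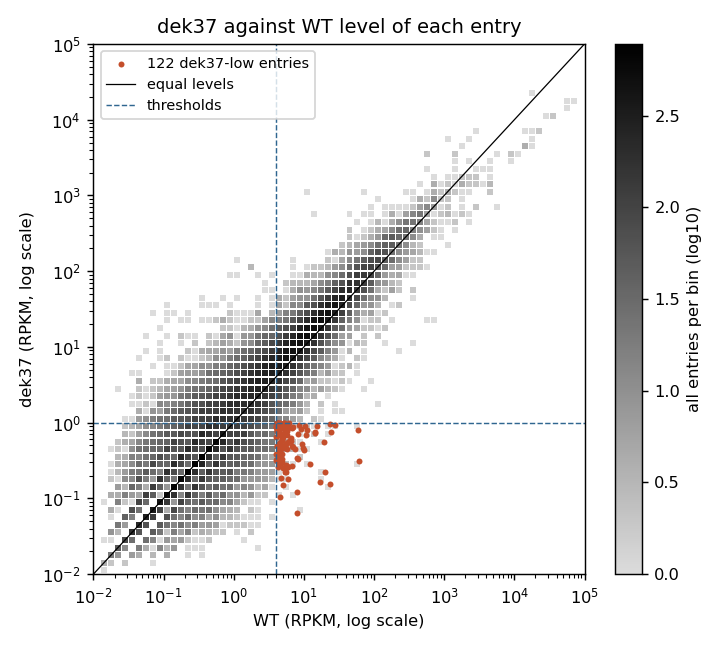
dek37 level against WT level of every entry, in RPKM on log axes. Grey squares are bins of all 56848 entries, orange points are the 122 dek37-low entries, and dashed lines mark 4 RPKM in WT and 1 RPKM in dek37. Most orange points crowd against the WT threshold, since 105 of 122 lie below 10 RPKM in WT.

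At the edges of the rule, entries on either side hardly differed. Just inside the WT threshold was the entry 146749163 to 146803543 of chromosome 10, with 0.638 RPKM in dek37 and 4.03 RPKM in WT, and the entry 244636779 to 244637709 of chromosome 1, with 0.885 RPKM in dek37 and 4.04 RPKM in WT. Just outside it was 167341222 to 167344190 on chromosome 7, with 0.997 RPKM in dek37 and 3.99 RPKM in WT. The other entry just outside was 11627635 to 11630361 on chromosome 9, with 0.699 RPKM in dek37 and 3.99 RPKM in WT. The chromosome 9 entry, outside the rule, rested on 24 reads in dek37 and 130 in WT. For the chromosome 10 entry, inside the rule, the smallest numbers that fit were 1 read in dek37 and 6 in WT, and larger ones also fit. At the dek37 threshold, the entries just inside had 0.997 RPKM in dek37 and 4.46 and 5.25 RPKM in WT. Those just outside, on chromosomes 1 and 6, had 1.00 RPKM in dek37 and 4.01 and 4.53 RPKM in WT.

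The deepest contrast was a well-read entry on chromosome 1. At chromosome 1, 287062939 to 287065014, it had 0.310 RPKM in dek37 (8 reads) and 60.8 RPKM in WT (1490 reads), so that dek37 held 0.510% of the WT level. The exact (Clopper-Pearson) 95% interval of that share was 0.139% to 1.31%. Such intervals were computed on fragments of 2 reads and cover counting error only, because PCR copies of 1 molecule cannot be recognised in these data. It is also the entry with the highest WT level of the 122, and no other dek37-low locus lay nearer than 3075 kb.

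A second entry of similar WT level was 53448716 to 53449507 on chromosome 7, with 0.811 RPKM in dek37 (4 reads) and 59.4 RPKM in WT (278 reads). Its dek37 share was 1.37% (interval 0.164% to 5.03%). These are the only members above 28 RPKM in WT, and both were read in dek37, so neither was fully without signal there.

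Among the next entries by size of difference, the dek37 signal came down to a few reads. At chromosome 3, 181748417 to 181750299, the level was 0.226 RPKM in dek37 (4 reads) and 19.7 RPKM in WT (332 reads), a share of 1.14% (interval 0.137% to 4.20%). At chromosome 8, 3927271 to 3927777, it was 0.163 RPKM in dek37 and 16.8 RPKM in WT (98 reads). The dek37 value there is that of 1 read, the lowest read number found in the file. No value of 0 occurs in either file, so 1 read may stand for none at all, and intervals count it as 0. The upper limit of the dek37 share was then 7.42% of the WT level.

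On chromosome 6, 33618065 to 33618466, a short locus of 402 bp had 0.759 RPKM in dek37 (4 reads) and 24.4 RPKM in WT (122 reads), a share of 3.11% (interval 0.369% to 11.7%). The lowest dek37 value among the 122, 0.0649 RPKM (1 read), belonged to the entry 10117318 to 10118871 of chromosome 5, named here after its values were seen, which had 8.06 RPKM in WT (118 reads). Its dek37 share was at most 6.13%.

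How firmly an entry can be called low in dek37 depended on its reads. In dek37, 44 of the 122 entries (36.1%) stood at the value of 1 read, 33 at 2 reads and 45 at more. Of all entries with at least 4 RPKM in WT, 50 (0.230%) stood at 1 read in dek37. In WT, the 122 entries had a median of 22 reads, against 182 for all entries with at least 4 RPKM in WT. Fewer than 20 WT reads lay behind 54 entries, 20 to 49 behind 33, 50 to 99 behind 12 and 100 or more behind 23. The 44 entries at 1 read in dek37 had a median of 10 WT reads, and 9 of them had 20 or more. These read numbers are the smallest that fit the RPKM values of both libraries. For 38 of the 122 entries no larger number fits within the span of the locus, and these had 8 to 1490 WT reads with a median of 32. Of these 38, 14 stood at 1 read in dek37, so the 44 is an upper bound.

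For 76 of the 122 entries the counting interval of the dek37 share lay wholly below 100%, the value of equal levels. Over all entries with at least 4 RPKM in WT, 9.7% had an interval wholly below equality, and since the rule chose the 122 for low values in dek37, nothing is read from that contrast. The other 46 entries had at most 18 WT reads, and their upper limits reached as high as 506%. An upper limit below 50% was found for 52 entries, below 25% for 31 and below 10% for 11. Counted on reads in place of fragments, 110 of 122 intervals lay below equality. With the largest read number that fits within each span, which assumes the longest counted length possible there, 105 did. With equality set at the median ratio of dek37 to WT over entries with at least 10 RPKM, which was 1.32, 94 did. These 3 alternatives were chosen after the data were examined.

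**Figure D2:**
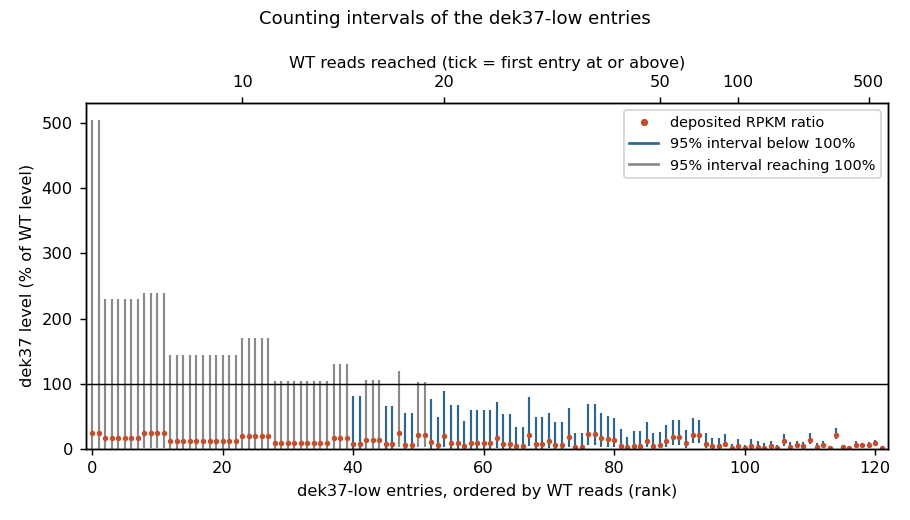
dek37 level as a percentage of the WT level for each of the 122 dek37-low entries, ordered from few to many WT reads by the smallest number that fits. Points are ratios of the deposited RPKM and bars are exact 95% counting intervals, blue where the whole interval lies below 100% (76 entries) and grey where it reaches 100% (46 entries, all with 18 WT reads or fewer).

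The dek37-low entries tended to sit at short loci. Locus span had a median of 931 bp for the 122 entries (quartiles 421 and 2157 bp) and 3564 bp for all 21710 entries with at least 4 RPKM in WT. Span was not a term of the rule but is not independent of it. RPKM divides reads by a length, so a short entry reaches 4 RPKM on few reads. The smallest lengths that fit had a median of 222 bases for the 122 entries and 675 bases for all 21710. A span under 300 bp was found for 21 of the 122 (17.2%), against 846 of 21710 (3.90%), and 13 of the 21 were under 150 bp. The share that met the rule was 2.48% of loci under 300 bp (interval 1.54% to 3.77%), 1.79% from 300 to under 1000 bp, 0.737% to under 2000 bp, 0.280% to under 5000 bp and 0.168% from 5000 bp upwards (interval 0.0868% to 0.293%).

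Short loci also held fewer reads at a given RPKM. WT reads come from the WT level that the rule itself used, so the shares by reads only describe where the members lie. They were 4.31% of entries with fewer than 20 reads, 1.22% with 20 to 49, 0.361% with 50 to 99, 0.214% with 100 to under 500 and 0.0591% with 500 or more (3 of 5080 entries). Restricted to entries with 100 or more WT reads, 0 of 97 met the rule under 300 bp (interval up to 3.73%), 2 of 665 from 300 to under 1000 bp, 7 of 1658 to under 2000 bp, 9 of 6159 to under 5000 bp and 5 of 5848 from 5000 bp upwards. In that better-read set the shortest class therefore showed no member, and the highest share was 0.422% in the class from 1000 to under 2000 bp (interval 0.170% to 0.868%). The part of read number in the pattern by span was otherwise not tested. These intervals take entries as independent, though entries of 1 locus share its span.

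**Figure D3:**
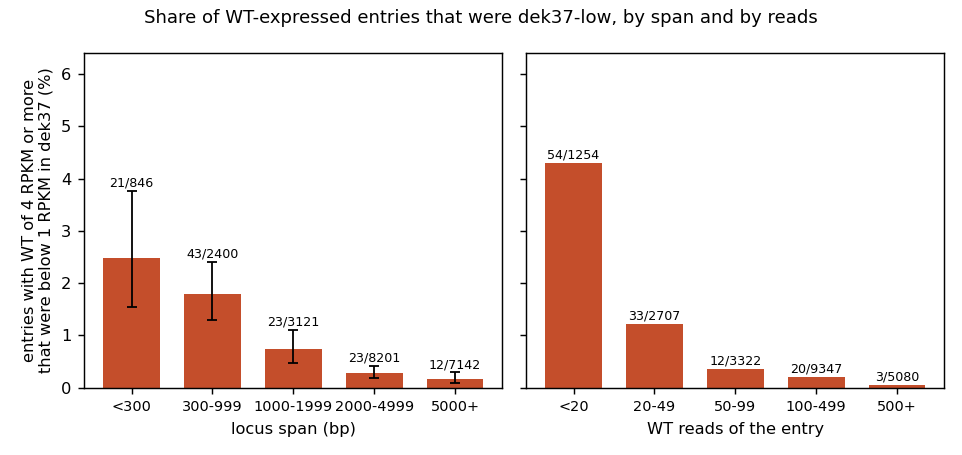
Percentage of entries with at least 4 RPKM in WT that were below 1 RPKM in dek37, by locus span in bp (left) and by WT reads of the entry (right). Numbers give members and entries, and bars by span carry exact 95% intervals. The share by span is 2.48% in the shortest class and 0.168% in the longest, and span is not independent of the rule, since RPKM divides reads by a length. The shares by reads are a description with no interval, since the rule used the WT level.

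Along the genome, the 121 loci were spread over all 10 chromosomes, with 19 on chromosome 1, 16 on chromosome 2, 13 on chromosome 9, 12 on chromosome 6, 11 each on chromosomes 3, 8 and 10, 10 on chromosome 5, 9 on chromosome 7, 8 on chromosome 4 and 1 on sequence not placed on a chromosome. As a share of the loci with at least 4 RPKM in WT, this ran from 0.412% on chromosome 4 (interval 0.178% to 0.811%) to 0.881% on chromosome 9 (interval 0.470% to 1.501%). These intervals overlap. No member lay on the mitochondrial or chloroplast genome, where 8 and 14 loci reached 4 RPKM in WT and which allow shares of up to 36.9% and 23.2% (exact 95% limits).

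Most of these loci stood alone. Of the 120 placed on chromosomes, 95 had no other dek37-low locus within 1 Mb, and 25 (20.8%) had one. Of 19686 other loci with at least 4 RPKM in WT, 12.4% had a dek37-low locus within 1 Mb. Within 200 kb the figures were 7.50% and 2.82%, and within 5 Mb 48.3% and 46.7%. The difference within 1 Mb depended on the rule: with a dek37 threshold of 2 RPKM in place of 1 RPKM the shares were 29.5% and 29.8%, and with the median difference set to 0 they were 19.05% and 17.3%. Under stricter thresholds it remained, on few loci. A WT threshold of 8 RPKM gave 24% (6 of 25 loci) and 2.76%, and a dek37 threshold of 0.5 RPKM gave 12.8% (6 of 47) and 4.74%. By the mirror rule, at least 4 RPKM in dek37 and below 1 RPKM in WT, there were 429 entries, 1.75% of those with at least 4 RPKM in dek37. Of their 420 placed loci, 36.7% had another such locus within 1 Mb, but with more loci on the same chromosomes that share is not comparable in size.

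The 25 loci formed 11 groups, of which 2 held 3 or more loci and 9 held a pair. In the 3 shortest groups, none over 62.4 kb, no other entry lay between the members. The other 8 groups enclosed 85 other entries with at least 1 RPKM in either library. Of these, 3 showed a log2 difference of -1 or less, here called 2-fold lower in dek37. Over all entries tested at that level, 3.86% were. Because 1 is added to each RPKM, this cut is stricter than 2-fold in plain RPKM, most of all near 1 RPKM. An entry at 3196914 to 3203561 of chromosome 8, with 0.0884 RPKM in dek37 and 1.12 RPKM in WT, had -0.96 and was not counted. The 8 wider groups were therefore scattered members among transcripts that were mostly not lower by this cut.

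The clearest group was a run of 3 consecutive loci on chromosome 4, between 153952808 and 154015172 (62.4 kb). The first locus, 153952808 to 153954094, had 0.155 RPKM in dek37 (1 read) and 23.2 RPKM in WT (142 reads), with an upper limit of 5.06% for the dek37 share. The second, 153991887 to 153993284, had 0.264 RPKM in dek37 (2 reads) and 6.67 RPKM in WT (48 reads), a share of 3.96% (interval 0.0962% to 24.3%). The third, 154013729 to 154015172, had 0.954 RPKM in dek37 (8 reads) and 23.6 RPKM in WT (188 reads), a share of 4.04% (interval 1.08% to 10.7%). All 3 loci are of like span, from 1287 to 1444 bp, and all 3 intervals lay far below 100%. Whether they are copies of each other that share reads was not determined.

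The surroundings of this run were mixed. The next locus, 154026533 to 154027342, had 5.37 RPKM in dek37 and 11.9 RPKM in WT, with a log2 difference of -1.01. In the 300 kb on either side, 12 entries had at least 1 RPKM in either library, with a median difference of 0.16 and a range from -1.31 to 2.61. Of these 12, 3 were at least 2-fold lower in dek37 and 6 were higher. Of all 33322 loci tested at that level, with 1 entry each, 3.75% were at least 2-fold lower and 72.7% were higher. Before the run, the nearest 3 entries had at most 0.280 RPKM in WT, too little to show a decrease. The nearest of them was higher in dek37, with 1.08 RPKM in dek37 (18 reads) and 0.0629 RPKM in WT (1 read).

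**Figure D4:**
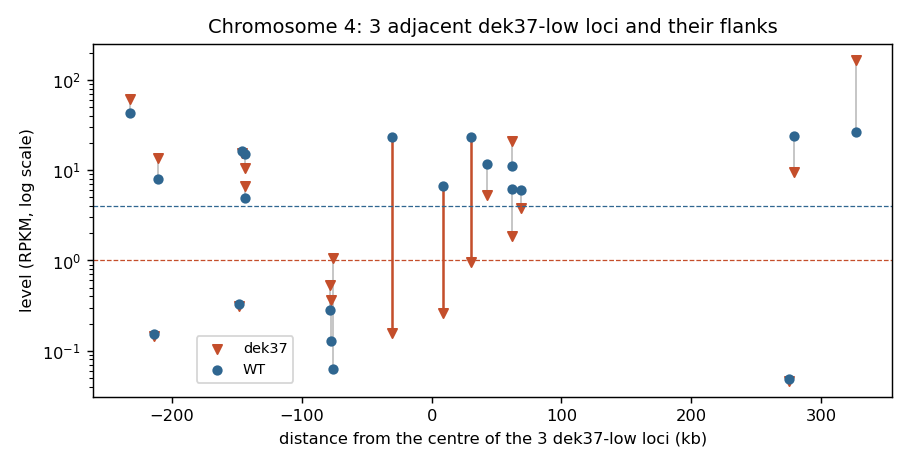
Levels in dek37 (triangles) and WT (circles), in RPKM on a log axis, of all entries within 300 kb of the run on chromosome 4, by distance in kb from its centre. Orange lines join the values of the 3 dek37-low loci and grey lines those of other entries, and dashed lines mark 1 and 4 RPKM. The 3 loci lie side by side with 0.155 to 0.954 RPKM in dek37, against 6.67 to 23.6 RPKM in WT, while the entries around them with at least 1 RPKM had differences from -1.31 to 2.61.

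Another group, of 4 loci on chromosome 9, reached over 1420 kb from 43676779 to 45096730. Its first locus, 43676779 to 43682735, had 0.526 RPKM in dek37 (16 reads) and 9.49 RPKM in WT (274 reads), a share of 5.54% (interval 2.35% to 11.2%). Only 412 bp further on, the locus 43683148 to 43683814 had 0.321 RPKM in dek37 (1 read) and 4.06 RPKM in WT (12 reads). The other 2 loci, of 117 and 316 bp, had 0.895 and 0.997 RPKM in dek37 and 10.4 and 4.20 RPKM in WT, from 22 and 8 WT reads. Between the 4 lay 21 tested entries with a median difference of 0.26, of which 14 were higher in dek37 and 1 was at least 2-fold lower. Of all tested loci, 72.7% were higher. The group thus joined a well-read locus with 3 whose smallest fitting read numbers were low.

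A pair on chromosome 6 was alike in span and in WT level. The loci 51047048 to 51047637 and 51067835 to 51068424 are both 590 bp long and had the same WT level of 4.32 RPKM to all deposited digits, with 0.513 and 0.257 RPKM in dek37. Another locus of 590 bp, 51075056 to 51075645, lay 6.63 kb further on, with 0.253 RPKM in dek37 (1 read) and 2.13 RPKM in WT (8 reads). The 3 loci fill 28.6 kb, while 17 loci of this length exist in the whole table. A like case on chromosome 1 was the member 224899932 to 224900546, with 0.270 RPKM in dek37 and 5.70 RPKM in WT, and a locus of the same 615 bp at 224910451 to 224911065, with 0.135 RPKM in dek37 and 1.42 RPKM in WT. In all, 6 dek37-low loci had a locus of equal span within 1 Mb. For 3 of them, those just named, such a locus was at least 2-fold lower in dek37, and for the other 3 none was. The partners of those 3, on chromosomes 1, 4 and 10, had log2 differences of 0.79, 0.63 and -0.47. By the smallest read numbers that fit, equal levels were not excluded for some of the lower loci. The partner at 224910451 had 1 read in dek37 and 10 in WT (upper limit of the dek37 share 103.6%). At 51047048 and 51075056 these were 1 and 8 reads (upper limit 143.8%). On the largest numbers that fit, it was 43.6% for 51047048. The limits were below equality for 51067835 (1 and 16 reads, 55.6%) and 224899932 (2 and 40 reads, 29.7%). The search for equal spans was made after the data were examined. How reads that match several places were counted is not given, and whether these loci share reads was not tested.

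The other pairs named by the rule lay on chromosome 1. The loci 275835279 to 275836493 and 275866802 to 275867691 were neighbours, with 0.918 and 0.340 RPKM in dek37 and 5.80 and 8.07 RPKM in WT. The second had 4 reads in dek37 and 90 reads in WT (share 4.22%, interval 0.496% to 16.2%), and no larger numbers fit within its span. For the first, the smallest numbers that fit were 1 read in dek37 and 6 reads in WT. Its upper limit was 230% on these and 30.6% on the largest that fit. In the pair at 244636779 and 244976754, the second locus, 244976754 to 244978209, had 0.733 RPKM in dek37 (20 reads) and 14.5 RPKM in WT (376 reads), a share of 5.05% (interval 2.38% to 9.50%). The 8 tested entries within that pair's 341 kb had a median difference of 0.59, and 6 of them were higher in dek37. Over all 33322 tested loci, with 1 entry each, the median was 0.36 and 72.7% were higher. Among the 8, 1 was at least 2-fold lower, 244768904 to 244769074, with 2.96 RPKM in dek37 (6 reads) and 22.9 RPKM in WT (44 reads), a log2 difference of -2.59.

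Several entries can stand at 1 locus in these files, and whether they are transcripts or genes is not stated. Of the 122 entries, 25 (20.5%) stood on 24 loci with more than 1 entry, against 25.2% of all entries with at least 4 RPKM in WT. At 1 of these loci, chromosome 1, 115789990 to 115790920, both entries met the rule, with 0.572 and 0.220 RPKM in dek37 and 6.63 and 5.56 RPKM in WT. The other 23 loci held 29 further entries. Of these, 9 were under 1 RPKM in both libraries and could not speak for or against the member, which left 20 at 16 loci.

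The other entries followed the member at some loci and not at others. Of the 20, 9 (45.0%) were at least 2-fold lower in dek37, against 4.03% of all tested entries at loci with several entries. In all 14 were lower and 6 higher, with a median difference of -0.76 and a range from -4.11 to 1.04. At 8 of the 16 loci at least 1 of the other entries was 2-fold lower, and at the other 8 none was. Entries of 1 locus may share reads, so agreement among them is not independent of the rule.

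Agreement was closest at chromosome 3, 201092983 to 201095214. The member had 0.926 RPKM in dek37 (6 reads) and 28.0 RPKM in WT (172 reads), and the other entry had 3.69 RPKM in dek37 (132 reads) and 80.1 RPKM in WT (2720 reads). The dek37 shares were 3.31% (interval 0.670% to 10.01%) and 4.61% (interval 3.54% to 5.90%). The second entry is outside the rule only because its dek37 level was above 1 RPKM, and with 2720 WT reads it is the best-read entry at any of these loci. About 1343 kb away on the same chromosome, the locus 199749280 to 199750442 had 0.978 and 1.79 RPKM in dek37 and 4.64 and 19.8 RPKM in WT, from 18 and 42 WT reads.

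At 4 more loci with a further entry of at least 4 RPKM in either library, that entry was also at least 2-fold lower. On chromosome 2, the locus 195035853 to 195038235 had 0.480 and 2.05 RPKM in dek37 and 7.08 and 9.30 RPKM in WT, and the second entry, with 284 WT reads, held 22.1% of the WT level. On the same chromosome, the locus 49461370 to 49465471 had 3 entries with 0.260, 1.14 and 0.255 RPKM in dek37 and 6.02, 4.31 and 1.88 RPKM in WT. On chromosome 10, the locus 39914787 to 39916434 had 0.434 and 12.4 RPKM in dek37 and 10.1 and 27.9 RPKM in WT. On chromosome 6, the locus 131154566 to 131158406 had 0.865 and 5.55 RPKM in dek37 and 5.77 and 13.7 RPKM in WT. At chromosome 10 the fuller entry kept 44.6% of its WT level (interval 30.7% to 63.9%), against 4.32% for the member (interval 0.105% to 26.7%). At chromosome 6 these shares were 40.6% and 15.0%, with intervals that overlap.

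At the other loci with a further entry of at least 4 RPKM in either library, none of the further entries was 2-fold lower on the log2(RPKM + 1) scale. At chromosome 1, 290139770 to 290161386, the member had 0.422 RPKM in dek37 (1 read) and 4.45 RPKM in WT (10 reads). The other abundant entries there had 82.7 and 35.9 RPKM in dek37 and 39.6 and 33.2 RPKM in WT. A weaker entry there had 0.239 RPKM in dek37 (1 read) and 1.01 RPKM in WT (4 reads), a log2 difference of -0.70. Its dek37 share was 23.7%, with an upper limit of 506%. At chromosome 10, 146749163 to 146803543, the member had 1 read in dek37 and 6 reads in WT, while the fullest entry had 35.0 RPKM in dek37 and 21.2 RPKM in WT. At chromosome 10, 89541001 to 89547015, the member had 0.545 RPKM in dek37 and 5.74 RPKM in WT, and the other entry was higher in dek37, with 4.86 RPKM in dek37 and 2.29 RPKM in WT.

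On chromosome 1, the locus 280580742 to 280583004 had 0.598 and 21.5 RPKM in dek37 and 6.30 and 38.8 RPKM in WT, and the locus 244636779 to 244637709 had 0.885 and 3.84 RPKM in dek37 and 4.04 and 6.25 RPKM in WT. On chromosome 2, the locus 115434733 to 115435526 had 0.848 and 2.33 RPKM in dek37 and 6.70 and 4.29 RPKM in WT. The members at these 6 loci had 6 to 30 WT reads by the smallest number that fits, and larger numbers fit within each span. With the largest, the upper limits of their dek37 shares would run from 11.8% to 54.4%. Few reads behind these members are therefore not established. At each of the 6 loci the most abundant further entry had at least 2.29 RPKM in both libraries.

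Loci outside the rule next to the dek37-low loci were for the most part retained. The nearest locus outside the rule on each side, with at least 1 RPKM in either library, gave 230 neighbours of the 120 placed loci. Each was represented by its most abundant entry. Any dek37-low locus lying in between was passed over, so such loci could not count as lower neighbours. The nearer neighbour lay at a median distance of 6.67 kb. The neighbours had a median difference of 0.29 (order-statistic 95% interval 0.14 to 0.38), and 148 of 230 (64.3%) were higher in dek37. Over all 33322 loci tested in the same way the median was 0.36 and 72.7% were higher. At least 2-fold lower were 16 neighbours (6.96%), against 3.75% of all tested loci, and at least 2-fold higher were 32 (13.9%), against 14.7%. All tested loci include the dek37-low loci, which the neighbours do not. Of loci outside the rule and more than 10 kb from a dek37-low locus, 3.38% were at least 2-fold lower. For 6 of the 16 lower neighbours the counting interval of the dek37 share reached 100%.

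**Figure D5:**
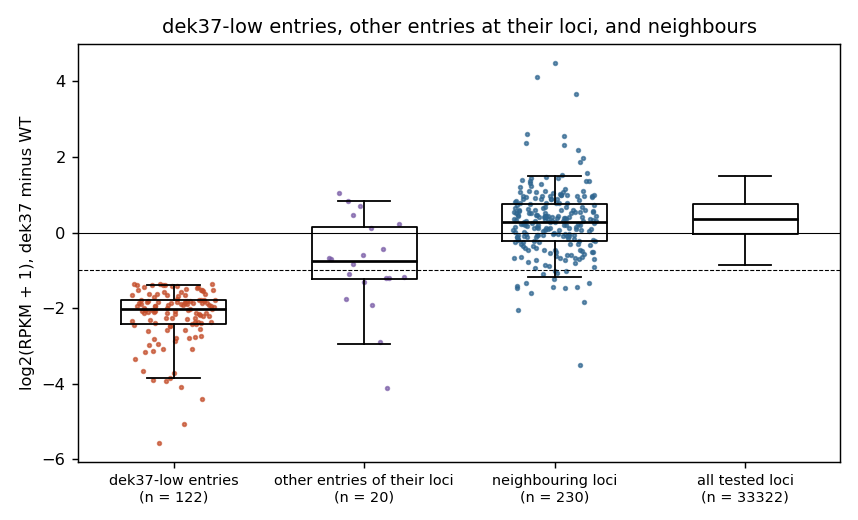
Difference of log2(RPKM + 1), dek37 minus WT, of the 122 dek37-low entries, the 20 other entries at their loci with at least 1 RPKM, their 230 neighbouring loci and all 33322 tested loci. Boxes span the quartiles with the median, whiskers the 5th to 95th percentile, points are entries, and the dashed line marks 2-fold lower. The other entries reach from the level of the members to above 0 (median -0.76), while the neighbours (median 0.29) lie about where all loci lie (median 0.36). The neighbours leave out dek37-low loci, which all tested loci include.

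The lower neighbours were mostly close by. Of tested loci outside the rule, 5 of 25 (20%, interval 6.83% to 40.7%) within 1 kb of a dek37-low locus were at least 2-fold lower in dek37, as were 10 of 83 (12.05%, interval 5.93% to 21.0%) at 1 to 10 kb. From 10 to 100 kb the share was 3.16% (13 of 411), from 100 kb to 1 Mb 3.51%, and beyond 1 Mb 3.37%. Within 10 kb this came to 15 of 108 (13.9%), against 3.38% of all loci further away. Of the 15, 9 had a counting interval wholly below 100% (8.33% of the 108), as had 2.19% of the loci further away. These distance classes were chosen after the data were examined. Whether loci so close belong to 1 transcription unit or are copies that share reads was not tested.

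The strongest such neighbour was on chromosome 8. Only 795 bp beyond the member 3927271 to 3927777, the locus 3928573 to 3929327 had 4.22 RPKM in dek37 (22 reads) and 58.2 RPKM in WT (288 reads), a share of 7.25% (interval 3.54% to 13.4%). On the other side of the member, the locus 3921705 to 3924577 had 179 RPKM in dek37 and 29.6 RPKM in WT. Side by side, these 3 loci thus had log2 differences of 2.56, -3.93 and -3.50. On chromosome 2, the member 83015007 to 83016416 had 0.447 RPKM in dek37 and 7.54 RPKM in WT. Its neighbour 83016450 to 83016574, only 33 bp on, had 5.11 RPKM in dek37 (12 reads) and 14.3 RPKM in WT (32 reads), named here after its values were seen.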

How the data were processed

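RNA had been extracted with Trizol, cleaned on columns with DNase I treatment and made into Illumina libraries, per the labels' protocols. Reads were handled with Bowtie 0.12.2, a short-read aligner, per the submitters' processing notes. For its settings, the genome build, the annotation, the read counter, the treatment of multiply mapping reads and filters, the sources used here give nothing. Per the file headers, the authors deposited RPKM. Both files list the same loci in the same order and were joined by row. The members and all lists were chosen with earlier results of these data known.

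From the RPKM, library totals were taken as 1e+09 divided by the commonest product of RPKM and span. The smallest length from 30 to 25000 bases that gave whole reads in both libraries (1 or an even number, tolerance 1e-08) was then found for 56842 of 56848 entries. Counting 2 reads per fragment and 1 read as 0 are inferred from the values and stated by no source. Starts are printed 1-based, the deposited ones being read as counted from 0. Over 1 kb, a single read amounts to 0.0523 RPKM in the dek37 library and to 0.0551 RPKM in the WT library. Intervals of dek37 shares are exact Clopper-Pearson 95% intervals and cover counting error only. Intervals of the percentage of entries or loci, by span, chromosome or distance, are exact binomial ones. They treat entries or loci as independent and do not cover the counting error of reads. Shares and medians over all tested entries or loci include the dek37-low ones.

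Described singly were the 5 entries with the largest decrease, the 5 highest in WT, the 5 groups with most loci (then the shortest), entries sharing a locus with a non-member of at least 4 RPKM, and the 2 entries on each side of each threshold. Python 3.11.15, NumPy 2.4.6, pandas 2.3.3 and SciPy 1.17.1 were used, and the code was tested on simulated data. Alternatives were other thresholds, pseudocounts of 0.1 and 5, other floors, distances and folds, 1 entry per locus and 2 scalings. Lists of marker genes could not be applied, since no entry has a name.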

Additional observations from a re-analysis of the deposited data

How the results depend on the processing

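No paired analysis was possible because a single library stands for each genotype, and none could be left out. The count of 122 entries follows the thresholds: 579 with a WT threshold of 2 RPKM, 25 with 8 RPKM, 48 with a dek37 threshold of 0.5 RPKM and 301 with 2 RPKM. It was 171 with the median difference set to 0, 156 when totals were made equal leaving out the 50 most abundant entries, 110 with 1 entry per locus and 97 at loci with 1 entry. The median difference of -2.01 became -1.35, -3.09, -2.29 and -1.64 under the same 4 thresholds, and -3.15 and -0.87 with pseudocounts of 0.1 and 5. In place of 25 loci with another such locus within 1 Mb, the thresholds gave 291 of 567 (51.3%, against 44.8% of other loci), 6 of 25 (24%, against 2.76%), 6 of 47 (12.8%, against 4.74%) and 87 of 295 (29.5%, against 29.8%), and distances of 200 kb and 5 Mb gave 9 and 58. The 9 lower entries at shared loci became 3 with a pseudocount of 5, 14 of 31 with the median set to 0 and 2 at 4-fold. The 16 lower neighbours became 26 and 2 with pseudocounts of 0.1 and 5, 10 with a floor of 4 RPKM, 31 of 326 with the median set to 0, 34 of 684 with the 3 nearest loci on each side and 2 at 4-fold. Within 10 kb (settings chosen after seeing the data), the 15 of 108 lower loci became 23 and 2 with those pseudocounts, 7 of 71 with the floor of 4 RPKM, 23 of 137 with the median set to 0 and 2 at 4-fold; the share stayed above that of loci further away under each setting, by 1.85% against 1.06% at the least. The 8 entries with the largest decrease or highest WT level stayed negative in all 32 values under pseudocounts and scalings. The rule fixes that direction, so this is no check.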
